A study of Mus musculus with 36 samples.

Results

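Gastrocnemius muscle of mice that ran 4.2 km/day (HFD-50%) was compared with that of mice that ran 6.3 km/day (HFD-75%), both on the high-fat diet. The members were the libraries that the labels give the treatments HFD-50% and HFD-75%, 6 mice in each, which are 12 of the 36 mice in the series. All 12 were male wild-type C57BL/6 mice, 3 to 4 weeks old on arrival, and were kept for 12 weeks on a diet in which soybean oil gave 45% of the energy. Their running wheels were braked once the daily distance of the group had been run, so both groups had a wheel and differed in the distance allowed. The time for which the wheel was free each day is not given and may have differed as well. One gastrocnemius per mouse gave 1 poly(A)-selected library, so each value below comes from a separate animal. Levels in the mice on the same diet that sat still (HFD-C), that ran 2.1 km/day (HFD-25%) or that ran 8.3 km/day without restriction (HFD-U), also 6 mice each, are given beside the values of the 12 mice, and HFD-25% against HFD-U serves at the end as a second contrast.

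The gastrocnemius of the mouse is mostly made of fast glycolytic fibres, with slow oxidative fibres in its deep part, and each fibre type uses its own set of myosin, troponin and tropomyosin genes. Endurance running is known to raise the use of fatty acids, to shift fibres towards oxidative types and to add capillaries, while hormones released during activity, such as glucocorticoids, act on the muscle through their own target genes. Muscle also holds endothelial cells, macrophages, fibroblasts, nerve and satellite cells. In such bulk RNA, fewer cells of a type and less RNA per cell cannot be told apart.

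The libraries held 14025701 to 22633484 counts on genes, with medians of 15404720 in HFD-50% and 15930896.5 in HFD-75%. Transcripts of the mitochondrial genome took 13.7 to 22.2% of the counts in HFD-50% and 11.6 to 17.8% in HFD-75%. Genes that define muscle fibres were abundant in all 12: Myh4, the myosin of the fastest fibres, ranged from 30500 to 66800 CPM (counts scaled to the size of the library) and Ckm, muscle creatine kinase, from 8870 to 15800. Hoxc10, a homeobox gene of the hind part of the body, was present in every one, at 47.8 to 75.4 CPM. Of 10 adipocyte markers, 5 were too low to be tested (Plin1, Lep, Retn, Ucp1 and Adrb3).

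The library of HFD-50% mouse 4 stood apart from the other 11. It lay at 76.64 on the first principal component, which held 29.2% of the variance, and 132 genes were at least 2-fold above, and 358 at least 2-fold below, the level of every other mouse. In the other 11 mice these numbers were 0 to 24 and 2 to 39. Chosen after the values were seen, Peg3, a paternally expressed zinc finger gene, was at 256 CPM in mouse 4 and at 13.8 to 25.8 CPM in the other 11. Over the other 29 high-fat mice Peg3 reached 142 CPM. Eif4ebp1, a repressor of translation, was at 348 against 38.9 to 84.9 CPM. Actc1, the cardiac actin that skeletal muscle also makes, was at 1.88 against 40.9 to 300 CPM, and Hoxd10 had no count at all against 3.28 to 8.81 CPM. Over all 29 the lowest values of Actc1 and Hoxd10 were 8.1 and 0.433 CPM, while Eif4ebp1 stayed at 84.9 CPM or less. Whether this library came from the same part of the muscle and the same handling was not tested. Calls that were lost, and list medians that turned, without this mouse are given below as values or counts.

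Taken gene by gene, no difference between 4.2 and 6.3 km/day was large enough against the spread between mice to pass an adjustment over all genes. Of 11896 genes whose mean count reached 25, 639 reached an unadjusted p of 0.05 or less in edgeR (a nominal call), or 5.37%, where 5% of the genes tested would be 594.8. Of these, 461 (3.88%) were higher and 178 (1.5%) lower in HFD-50%. With adjustment by the Benjamini-Hochberg method 0 genes passed 0.05, the smallest adjusted p being 0.838, and DESeq2, which gave 715 nominal calls, also gave 0 after adjustment (smallest adjusted p 0.393). Counts of genes called below are nominal calls, and a share of a gene list has to be read against these percentages. Estimates were above 0 in 53.54% of all genes tested, beside which counts of signs in a list have to be read. Members of a list can move together from mouse to mouse, and lists and members were chosen with earlier results of these data known. Some genes, such as Mt1, Mt2 and Sesn1, are in more than 1 list. Such counts are therefore descriptions.

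The differences were small for most genes. The log2 fold change of HFD-50% over HFD-75% lay between -0.32 and 0.45 for the middle 90% of the genes, and for 10680 genes (89.8%) its 95% interval lay within a 2-fold change in either direction. Larger differences were mostly towards HFD-50%, since of the nominally called genes, 46 were at least 2-fold higher and 2 at least 2-fold lower there. Without HFD-50% mouse 4 these numbers were 19 and 4. In 11 genes every HFD-50% mouse was above every HFD-75% mouse, which is 0.0925% of the genes tested, and in another 11 (0.0925%) every HFD-50% mouse was below. The higher ones were Tbx2, Gm36355, Tacc1, Setd4, Iqgap1, Tcf4, Ctbp2, Uhrf2, AA386476, Rnf31 and Pomt2. The lower ones were Mettl5, Atg4d, Mrpl49, Apbb1, Trappc2, Sephs2, Cbwd1, C1d, Mrfap1, Ssbp3 and Cdv3.

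**Figure D1:**
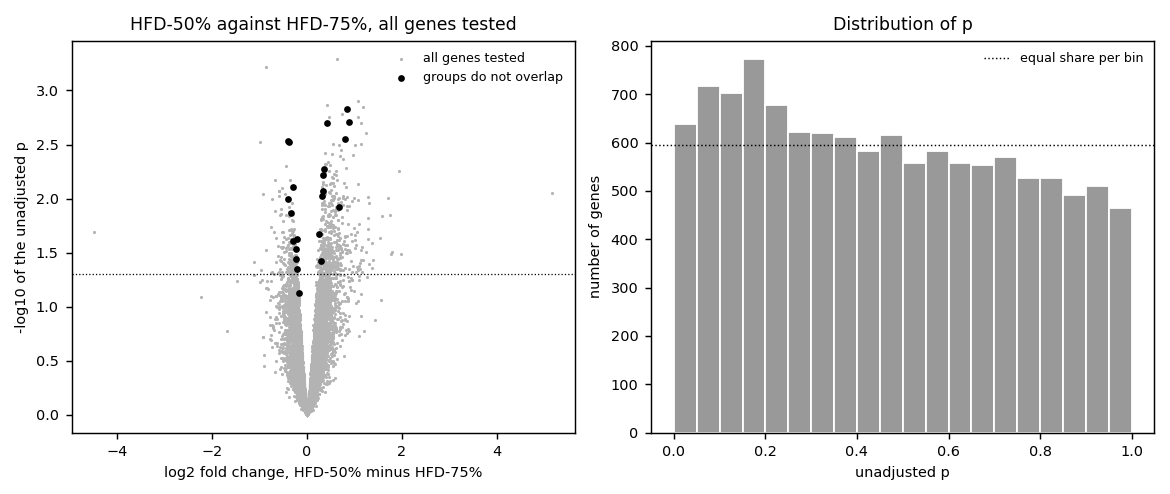
Left, the log2 fold change of each of the 11896 genes tested (HFD-50% minus HFD-75%) against -log10 of its unadjusted p; black points are genes whose groups do not overlap, and the dotted line is the limit of a nominal call. Right, the number of genes in 20 equal bins of p, with a dotted line at an equal share per bin; the lowest bin holds 639 genes, close to the 594.8 of an equal share.

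The gene with the smallest p among those higher in HFD-50% was Phyhd1, an oxoglutarate-dependent dioxygenase (gene 227696, chr2:30156215-30172161 of GRCm39, plus strand). It ran from 33.3 through a median of 50.1 to 54.4 CPM in HFD-50% and from 27 through 31.1 to 34.5 CPM in HFD-75%. Only HFD-50% mouse 2 lay within the range of HFD-75%. Its mean was 46.4 ± 9.33 CPM (SD, n = 6) against 30.7 ± 3.25, a log2 fold change of 0.62 with a 95% interval of 0.32 to 0.92 (edgeR unadjusted p = 0.000507, adjusted p = 0.838). The sedentary HFD-C mice had a median of 18.7 CPM and the HFD-25% and HFD-U mice 36.1 and 28.3, so that the HFD-50% median was the highest of the 5 groups.

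Aldh9a1, an aldehyde dehydrogenase of carnitine synthesis (gene 56752, chr1:167177532-167196099 of GRCm39, plus strand), spanned 20.1, 37.1 and 68.1 CPM as lowest, median and highest in HFD-50% and 11.3, 18.7 and 30.1 CPM in HFD-75%. The highest HFD-75% mouse, mouse 1, was above HFD-50% mice 1 and 3, so the groups overlapped. The log2 fold change was 1.07 (95% interval 0.50 to 1.65, unadjusted p = 0.00125). Acap2, a GTPase-activating protein of Arf proteins in membrane traffic, was at 29.1 to 41.4 CPM (median 37) against 25.7 to 31.2 CPM (median 28.2), which is a log2 fold change of 0.42 (0.19 to 0.65). Here 5 of the 6 HFD-50% mice were above all of HFD-75%, mouse 1 being the exception.

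Tbx2, a T-box repressor of transcription, separated the groups fully at a low level, with 5.29, 6.27 and 9.37 CPM against 2.52, 3.86 and 5.1 CPM (log2 fold change 0.84, 0.38 to 1.30). Tacc1, a coiled-coil protein of the centrosome, and Setd4, a SET-domain methyltransferase, did so as well, at 18.6 to 24.7 against 13.5 to 18 CPM and at 4.29 to 7.05 against 1.8 to 4.27 CPM. Tbx2 also had a higher level in the HFD-25% mice than in HFD-U, which are other animals, with a log2 fold change of 0.69 and an unadjusted p of 0.00256. Its median was 3.55 CPM in HFD-C, 7.43 in HFD-25% and 4.33 in HFD-U.

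Among these leading genes were also a pair known from immune cells. Lilrb4a, an inhibitory receptor of myeloid cells, was at 1.25 to 3.57 CPM in HFD-50% and 0.6 to 1.48 CPM in HFD-75% (log2 fold change 1.19, 0.54 to 1.84). Cd274, the checkpoint ligand PD-L1, was at 1.93 to 5.82 against 1.11 to 2.55 CPM (log2 fold change 1.14, 0.49 to 1.80). In each gene HFD-50% mouse 4 was the lowest of its group and the only one within the range of HFD-75%. Cd274 was also higher in HFD-25% than in HFD-U (log2 fold change 1.03, unadjusted p = 0.0112), whereas Lilrb4a was at 0.08 there.

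The remaining named genes among the 15 with the smallest p higher in HFD-50% were Inmt, which methylates indolamines, Atp2c1, the calcium and manganese pump of the Golgi, Nrbp2, a pseudokinase, Izumo4, Sfxn5, a mitochondrial sideroflexin, and Socs2, a feedback inhibitor of growth hormone signalling. Their log2 fold changes were 0.73, 0.47, 0.56, 1.01, 0.67 and 0.72. The feature Mir12181 also belongs to the 15, but reads from poly(A) RNA over a microRNA locus do not measure the mature microRNA. In all 15 the HFD-50% median was above that of HFD-C, in 6 the HFD-75% median was too, and 13 had the same sign in HFD-25% against HFD-U. Of all genes higher in HFD-50%, 64.1% had the same sign there. The 15 were picked for high values in HFD-50%, which by itself favours a median above that of HFD-C. None of the named genes among them lost its nominal call when any 1 of the 12 mice was left out.

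**Figure D2:**
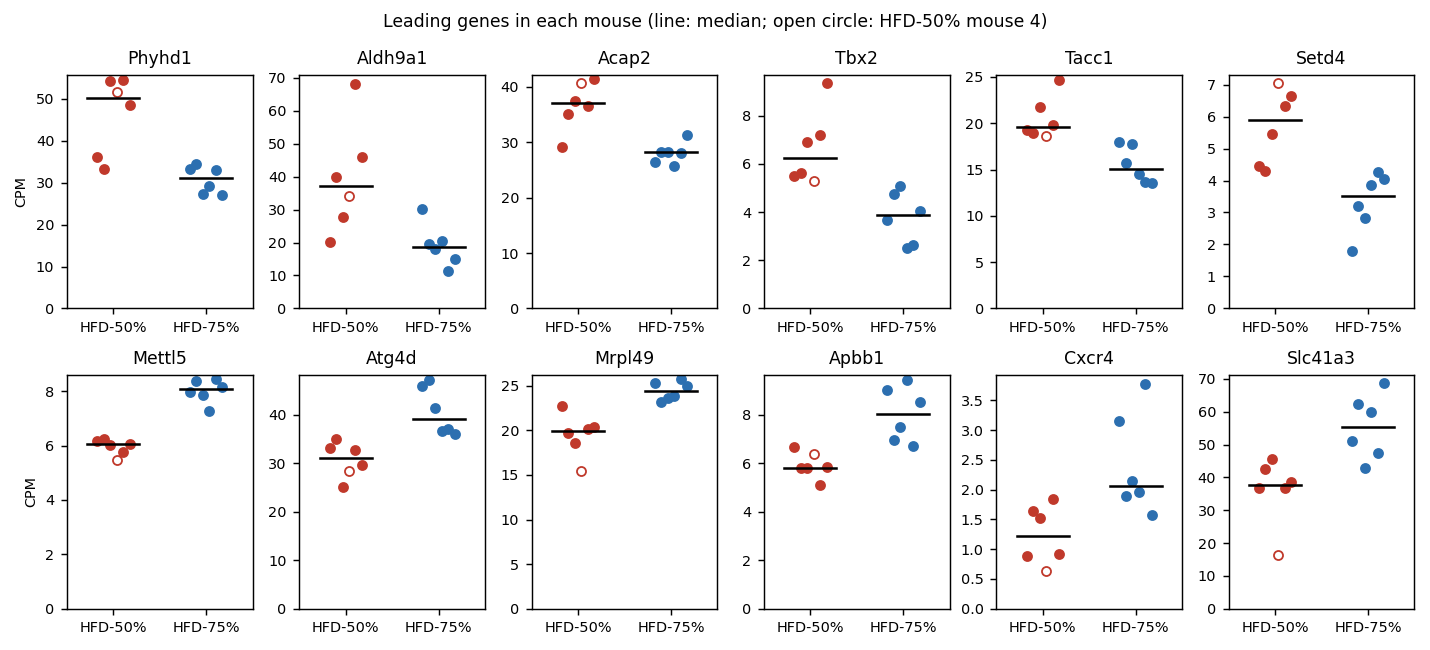
CPM of 12 leading genes in each of the 6 HFD-50% mice (red) and 6 HFD-75% mice (blue), with the median as a line and HFD-50% mouse 4 as an open circle. The groups do not overlap in Tbx2, Tacc1, Setd4, Mettl5, Atg4d, Mrpl49 and Apbb1, and they overlap in the other 5.

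Lower in HFD-50%, by the smallest p, were the 15 genes that follow. Mettl5, a methyltransferase of ribosomal RNA (gene 75422, chr2:69701539-69717961 of GRCm39, minus strand), was at 5.46, 6.05 and 6.25 CPM in HFD-50% and 7.27, 8.07 and 8.45 CPM in HFD-75%. The groups were tight and apart, with means of 5.95 ± 0.294 and 8.01 ± 0.426 CPM (SD, n = 6). The log2 fold change was -0.40 (-0.64 to -0.16, unadjusted p = 0.00296). In the other mice Mettl5 was at medians of 6.8 CPM (HFD-C), 8.05 (HFD-25%) and 8.25 (HFD-U).

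Atg4d, a protease that processes the ubiquitin-like proteins of autophagosomes (gene 235040, chr9:21176496-21186133 of GRCm39, plus strand), was at 25.1, 31.2 and 34.9 CPM against 36.1, 39.2 and 47.1 CPM, again with no overlap (log2 fold change -0.38, -0.61 to -0.15). Mrpl49, a protein of the mitochondrial ribosome, was at 15.4 to 22.7 against 23.2 to 25.7 CPM. Apbb1, an adaptor of the amyloid precursor protein, was at 5.11 to 6.69 against 6.72 to 9.44 CPM, so that the 2 groups were apart by little. Timm23, the channel that imports proteins through the inner mitochondrial membrane, was at 74.5 to 110 against 102 to 182 CPM (log2 fold change -0.46).

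Slc41a3, of a family of magnesium transporters, was at 16.4, 37.7 and 45.7 CPM in HFD-50% and 43, 55.4 and 68.6 CPM in HFD-75%, a log2 fold change of -0.59 (-1.01 to -0.18). Without HFD-50% mouse 4, the lowest of all, it was -0.45 with an unadjusted p of 0.0032. In HFD-25% against HFD-U its log2 fold change was -0.51 (unadjusted p = 0.00314), and sedentary HFD-C mice had a median of 71.2 CPM. Cxcr4, the receptor of the chemokine Cxcl12, was at 0.626 to 1.85 CPM against 1.57 to 3.77 CPM here (log2 fold change -0.94) and went the other way in HFD-25% against HFD-U, with 0.86 (unadjusted p = 0.0276).

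The other genes of the 15 were Borcs6 and Dynll2, which act in the movement of organelles, Nkiras2, a small GTPase that restrains NF-kB, Ttll12, Aurka, a kinase of mitosis, Elp5, a subunit of Elongator, P4ha1, which hydroxylates collagen prolines, and the feature Mir1839. Log2 fold changes were -0.35 for Borcs6, -0.55 for Dynll2, -0.67 for Nkiras2, -0.58 for Ttll12, -0.74 for Aurka, -0.32 for Elp5 and -0.38 for P4ha1. The HFD-50% median was above that of HFD-C in 1 of the 15 and the HFD-75% median in 11, counts that the choice of genes also favours. In HFD-25% against HFD-U 9 of the 15 had the same sign, where 67.3% of all genes lower in HFD-50% did. No named gene of these lost its nominal call when 1 mouse was left out.

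The study named 12 genes from these mice, so their direction is not independent evidence here. All 12 had a higher estimate in HFD-50% than in HFD-75% (median log2 fold change 0.34, against 0.02 over all genes tested), and 5 were called nominally, namely Phyhd1, Aldh9a1, Xdh, Car4 and Sesn1. With the mean level of slow fibre genes as a covariate 3 of the 12 were called, and 2 when HFD-50% mouse 4 was also left out. Xdh, which makes uric acid from purines, was at 75.7, 98.1 and 134 CPM against 54.6, 73 and 95.2 CPM. HFD-50% mice 3, 5 and 6 were above every HFD-75% mouse, and the other 3 were within their range. Its log2 fold change was 0.54 (0.17 to 0.92), and in HFD-25% against HFD-U it was 0.82 (unadjusted p = 0.0129).

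Car4, the membrane-bound carbonic anhydrase of capillaries and fibres, was at 8.18, 17.1 and 30 CPM against 8.08, 9.87 and 13.5 CPM (log2 fold change 0.75). The same 3 mice and mouse 4 were above all of HFD-75%, and without HFD-50% mouse 6 the log2 fold change was 0.50 with an unadjusted p of 0.0608. Sesn1, a stress-induced inhibitor of mTORC1, was at 30.4, 41.7 and 196 CPM against 21.5, 33.9 and 54.6 CPM. The value of 196 CPM was that of HFD-50% mouse 4, and the log2 fold change of 1.04 (unadjusted p = 0.0266) was 0.37 (unadjusted p = 0.164) without it. Its p was also above 0.05 without HFD-75% mouse 3 (0.0541) or mouse 4 (0.0578).

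The remaining 7 were not separated from 0, with unadjusted p between 0.102 and 0.656. Their log2 fold changes were 0.33 for Aldh1l1, a folate enzyme, 0.33 for Klf10, a transcription factor induced by TGF-beta, 0.34 for Fibin, 0.18 for Fkbp5, a glucocorticoid target that binds the receptor, 0.21 for Pik3r1, the regulatory subunit of the insulin-responsive PI3-kinase, 0.13 for Lars2, which charges mitochondrial leucine tRNA, and 0.12 for Foxo1, a transcription factor of muscle breakdown. The interval of Fkbp5, from -0.33 to 0.68, leaves room for differences of either sign, and its medians were 183 and 188 CPM, against 68.6 CPM in HFD-C. The estimates of Fibin and Foxo1 were -0.03 and -0.08 without HFD-50% mouse 4.

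Among the lists, slow fibre genes had the highest median log2 fold change, 0.94 over 15 genes, 12 of them with a positive value. Of the 15, 6 were called higher and 0 lower. These were Sln, sarcolipin, which binds the calcium pump of the sarcoplasmic reticulum, the myosin heavy chains Myh7b and Myh7, slow troponins Tnnt1 and Tnnc1, and slow tropomyosin Tpm3. Tpm3, Myh7 and Tnnc1 are named outside the rule for named genes, after their values were seen.

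The level of the slow genes varied several-fold between mice of the same group. Myh7b was at 2.77, 14.9 and 36.9 CPM in HFD-50% and at 2.03, 5.83 and 8.7 CPM in HFD-75%, with a log2 fold change of 1.72 (0.48 to 2.96). The mice at 24, 30.4 and 36.9 CPM were HFD-50% mice 3, 5 and 6, and the other 3, at 2.77 to 5.75 CPM, lay within the range of HFD-75%. In Tnnt1 the same 3 mice were the highest, with 290, 443 and 379 CPM, 37.1 to 120 in the other 3 and 17.5 to 194 CPM in HFD-75% (log2 fold change 1.54, 0.24 to 2.84). Myh7 itself was at 79, 261 and 747 CPM against 18.2, 119 and 281 CPM, and the groups overlapped widely (1.31, 0.07 to 2.56).

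Calls on the slow genes depended on single mice. Without HFD-50% mouse 5 or without mouse 6, 2 of the 15 genes were called, and without mouse 4 it was 8. Tnnt1 was at an unadjusted p of 0.0626 without mouse 5 and 0.0536 without mouse 6. The calls of Tpm3, Myh7 and Tnnc1 were each ended by 6 or 7 of the 12 mice when left out. In 1 fit over the 5 HFD groups, which takes the spread from all 30 mice, 2 of the 15 were called. Sedentary HFD-C mice spanned 0.31 to 523 CPM of Myh7. Sln differed in its order, since HFD-50% mouse 4 held the highest value, 23.1 CPM, against 1.22 to 7.96 CPM in the other 5 mice and 0.966 to 2.65 CPM in HFD-75%, and its log2 fold change of 1.94 was 0.98 (unadjusted p = 0.0296) without that mouse.

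Genes of fast 2B fibres, by contrast, had 0 of 16 members called, yet every estimate was below 0, with a median of -0.25. The markers of muscle fibres were alike, with 7 of 7 below 0 and a median of -0.24. Without HFD-50% mouse 4 the 2 medians were -0.20 and -0.17. Fast 2B genes had 3 lower calls without HFD-75% mouse 1, 2 without HFD-50% mouse 2 and 1 in DESeq2. For the muscle fibre markers these counts were 1, 1 and 2. The mean log2 level of the slow list, centred on its mean, ran from -0.61 to 1.37 in HFD-50% and from -1.27 to 0.55 in HFD-75%, with 2 mice (5 and 6 of HFD-50%) above the highest of HFD-75%. With this mean as a covariate, the number of nominal calls went from 639 to 343, of which 223 were among the 639. Where in the muscle each sample lay was not tested.

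**Figure D3:**
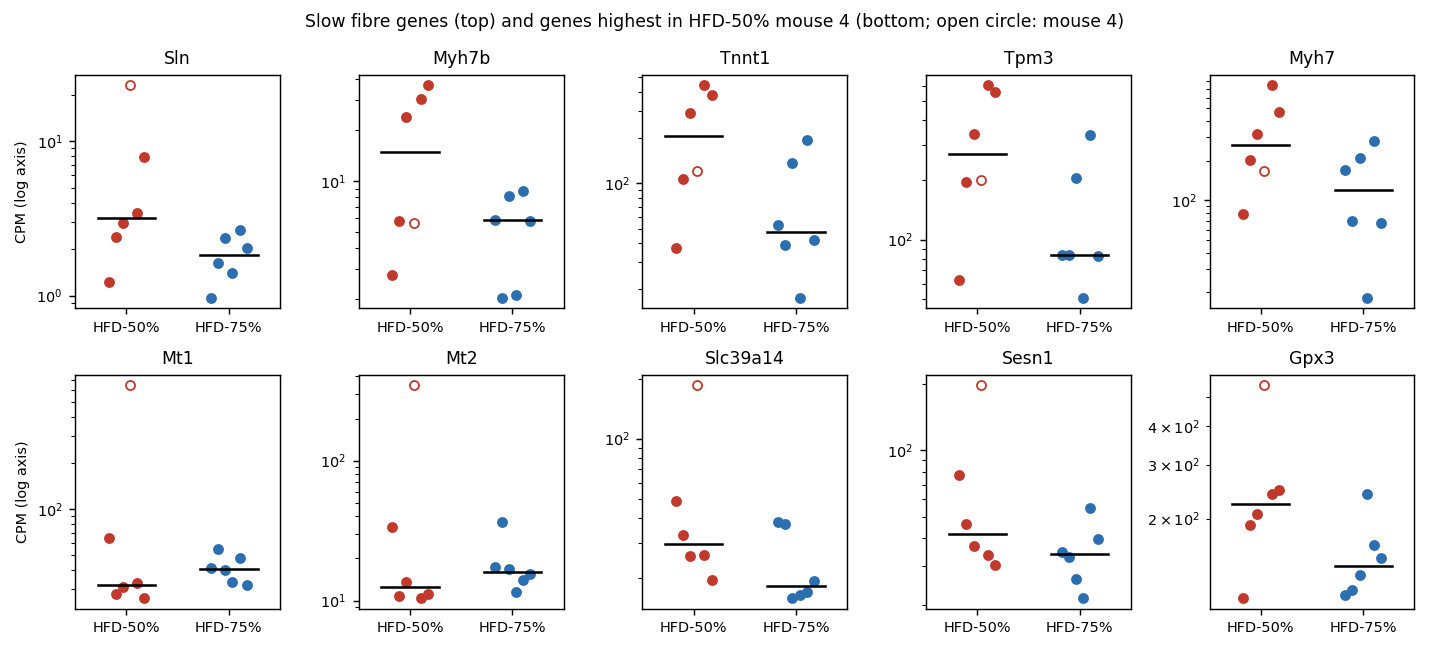
CPM (log axis) of 5 slow fibre genes and of 5 genes that were highest in HFD-50% mouse 4, per mouse, with the median as a line; red is HFD-50%, blue is HFD-75%, and the open circle is mouse 4. In the upper row HFD-50% mice 3, 5 and 6 carry the higher values, apart from Sln; in the lower row 1 mouse does, at 641 CPM for Mt1 and 345 for Mt2.

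Metallothioneins and their partners were the second set with large fold changes, and these rested on 1 animal. Mt1 and Mt2, small cysteine-rich proteins that bind zinc and are induced by zinc and by glucocorticoids, had log2 fold changes of 1.79 and 1.99. Mt1 was at 641 CPM in HFD-50% mouse 4, at 26.2 to 64.6 CPM in the other 5 and at 31.7 to 54.5 CPM in HFD-75%. Mt2 was at 345 CPM in that mouse, at 10.4 to 33.6 CPM in the other 5 and at 11.5 to 36.4 CPM in HFD-75%. Without mouse 4 the log2 fold changes were -0.17 (unadjusted p = 0.456) and -0.21 (unadjusted p = 0.542), so the direction turned.

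Both genes lie side by side on chromosome 8, and their promoters are printed here because the same mouse was highest in both. The sequences run from 250 bases before the gene start to 29 bases into it, from RefSeq's GRCm38.p6 tables, at chr8:94178839-94179117 for Mt1 and chr8:94172368-94172646 for Mt2, plus strand. Of 4 genes looked up there, 3 were found. Capitals mark TGCACNC or TGCGCNC, the core of the metal response element bound by the zinc sensor Mtf1, on either strand.
Mt1: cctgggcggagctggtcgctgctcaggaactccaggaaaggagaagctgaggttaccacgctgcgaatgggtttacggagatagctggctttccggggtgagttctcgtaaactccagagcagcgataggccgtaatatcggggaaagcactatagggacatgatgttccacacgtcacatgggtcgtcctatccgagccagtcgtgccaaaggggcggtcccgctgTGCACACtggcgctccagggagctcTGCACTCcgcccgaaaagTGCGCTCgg
Mt2: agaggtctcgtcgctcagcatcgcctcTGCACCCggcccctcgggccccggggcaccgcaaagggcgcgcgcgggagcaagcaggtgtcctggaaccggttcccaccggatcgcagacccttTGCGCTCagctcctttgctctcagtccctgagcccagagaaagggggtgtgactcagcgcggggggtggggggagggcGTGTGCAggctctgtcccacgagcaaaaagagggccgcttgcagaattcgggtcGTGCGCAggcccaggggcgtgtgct
Mt1 held 3 such matches in this window and Mt2 held 4. Of 32851 promoters of the same length, 24% held at least 1 match, 1.72% at least 3 and 0.396% at least 4.

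The list of antioxidant genes and metallothioneins had 5 of 21 members called higher and 0 lower, against 3.88% and 1.5% of all genes. Beside Mt1 and Mt2 these were Slc39a14, a zinc importer, Gpx3, the secreted glutathione peroxidase, and Hmox1, which breaks down haem. Slc39a14 was at 185 CPM in mouse 4 against 19.5 to 48.8 CPM in the rest of its group and 15.8 to 38 CPM in HFD-75%. Gpx3 was at 544 CPM against 110 to 248 CPM and 113 to 241 CPM, and Hmox1 at 42.2 CPM against 4.51 to 20.3 CPM and 4.7 to 12.3 CPM. Without mouse 4, 0 of the 21 remained, and the median of the list was -0.07 in place of 0.11. Hmox1 was chosen after its values were seen. Leaving out a single HFD-75% mouse also took some p above 0.05, as for Gpx3 without mouse 1 or 2 (0.0514 and 0.0526) and for Mt1 without mouse 3, 4 or 6 (0.051 to 0.0564).

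The same held for glucocorticoid-responsive genes. Of 30, 4 were higher and 0 lower at the limit (Mt1, Mt2, Sesn1 and Map3k6, a stress kinase), with a median of 0.17. Without mouse 4 the count was 0 and the median -0.15. The count was also 0 without HFD-75% mouse 3 or mouse 4, where the medians were 0.08 and 0.07, and 1 without HFD-75% mouse 6. Map3k6, named after its values were seen, was at 64 CPM in mouse 4, at 23.5 to 36.4 CPM in the rest of HFD-50% and at 19.2 to 30.5 CPM in HFD-75%. Genes of protein breakdown under FOXO factors had 1 of 23 higher, again Sesn1, and 0 without that mouse or without HFD-75% mouse 3 or 4. Their median of 0.12 was -0.05 without HFD-50% mouse 4. Genes of autophagy had 0 of 30 in either direction, with a median of -0.04.

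The list of cytokine feedback genes, which also holds the receptor gene Osmr and the binding protein gene Igfbp3, had 4 of 21 higher and 0 lower. Without mouse 4 the count was also 4, of which 3 were among the first 4. Cish, a suppressor of cytokine signalling that the STAT5 factors induce after growth hormone, was at 24.7, 39.1 and 63.7 CPM against 5.7, 18.1 and 36.6 CPM (log2 fold change 1.07, 0.33 to 1.81). HFD-50% mice 2, 3, 5 and 6 were above every HFD-75% mouse, and 1 and 4 were not. Socs2, its relative, was at 16.6, 22.8 and 29.4 CPM against 7.9, 14.4 and 19.6 CPM (log2 fold change 0.72, 0.28 to 1.17), with HFD-50% mice 2, 4 and 5 above all of HFD-75%. Neither gene lost its call without any 1 mouse, and in HFD-25% against HFD-U their log2 fold changes were 0.33 and 0.19, with unadjusted p of 0.451 and 0.418.

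The promoter of Cish is shown for its STAT motifs, at chr9:107296409-107296687 of GRCm38.p6, plus strand, from RefSeq. Capitals mark TTCNNNGAA, the palindrome that STAT dimers bind.
Cish: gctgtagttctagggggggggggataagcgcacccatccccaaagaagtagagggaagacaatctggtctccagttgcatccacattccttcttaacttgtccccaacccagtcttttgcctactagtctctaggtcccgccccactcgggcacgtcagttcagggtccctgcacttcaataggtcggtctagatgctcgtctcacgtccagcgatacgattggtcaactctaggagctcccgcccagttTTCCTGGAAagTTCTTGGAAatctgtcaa
It held 2 matches, which start at bases 1 and 12 of the gene, and 0.408% of the 32851 promoters held at least 2.
Osmr, the receptor subunit for oncostatin M, was at 9.26, 14 and 25.3 CPM against 7.53, 10.1 and 12.4 CPM (log2 fold change 0.66, 0.18 to 1.15). Igfbp3, which binds insulin-like growth factors and was named after its values were seen, had a log2 fold change of 0.37 (unadjusted p = 0.0405), which was 0.22 (unadjusted p = 0.118) without HFD-50% mouse 4. Its p passed 0.05 without any of 8 of the 12 mice. With the slow fibre covariate 1 of the 21 genes was at the limit.

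Targets of PPAR factors had 5 of 32 higher and 0 lower, with 21 estimates above 0, 11 below and a median of 0.06. The median was -0.01 without HFD-50% mouse 1 and -0.003 without HFD-75% mouse 2. Ucp2, a carrier of the inner mitochondrial membrane, was at 12.3, 20 and 30.4 CPM against 11.9, 13.8 and 19.8 CPM (log2 fold change 0.50). Without HFD-50% mouse 3 its unadjusted p was 0.0683.

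Angptl4, an inhibitor of lipoprotein lipase, was at 11.9, 22.6 and 46.3 CPM against 7.85, 14.6 and 25.9 CPM (log2 fold change 0.70, 0.02 to 1.39). The highest value was that of HFD-50% mouse 1, without which the log2 fold change was 0.41 (unadjusted p = 0.169), and 7 other mice also took the p past 0.05 when left out. In HFD-25% against HFD-U Angptl4 was at 1.15 (unadjusted p = 0.0024), with medians of 10.6 and 5.29 CPM. Ehhadh, of peroxisomal fatty acid oxidation, and Acot1, a fatty acyl-CoA thioesterase, had log2 fold changes of 0.46 and 1.04, and 9 and 7 of the 12 mice ended their calls when left out. Both were named after their values were seen. Without HFD-50% mouse 4 the log2 fold change was 0.47 (unadjusted p = 0.0536) for Ehhadh and 0.62 (unadjusted p = 0.185) for Acot1. Of the 5 calls, 3 remained without that mouse, and with the slow fibre covariate 2 did.

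Interferon-responsive genes tended to higher estimates in HFD-50%, with 25 of 26 above 0 and a median of 0.32, and 2 were higher and 0 lower at the limit. Ifit1, an antiviral RNA-binding protein, was at 1.62, 2.26 and 5.1 CPM against 0.966, 1.44 and 2.75 CPM (log2 fold change 0.84, 0.09 to 1.58). H2-K1, a class I antigen-presenting molecule, was at 42.5, 60.1 and 81.7 CPM against 31.9, 48.1 and 58.9 CPM (log2 fold change 0.40, 0.01 to 0.79). The count was 9 without HFD-50% mouse 4. It was 0 without HFD-50% mouse 3 or 6 or HFD-75% mouse 1 or 6. With the slow fibre covariate it was also 0, and the median was -0.01. Leaving out 6 mice in turn ended the call of Ifit1 and 7 that of H2-K1.

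Macrophage and endothelial markers also had estimates above 0, of which 1 was at the limit. All 9 macrophage markers tested were above 0, with a median of 0.43, and their summed level was 60.3 to 112 CPM in HFD-50% and 38.5 to 95.9 CPM in HFD-75%. The 1 at the limit was Ptprc, the common leukocyte antigen, at 1.15, 2.14 and 2.65 CPM against 0.939, 1.17 and 1.98 CPM (unadjusted p = 0.0494, past 0.05 without any of 9 mice). All 10 endothelial markers were above 0, with a median of 0.21 and sums of 253.9 to 514 CPM and 269.6 to 479.8 CPM, and 0 were at the limit, or 2 without HFD-50% mouse 4. With the slow fibre covariate the medians were 0.26 for macrophage and 0.02 for endothelial markers. Satellite cell markers were below 0 in 6 of 6, with a median of -0.12. Adipocyte, blood, nerve and fibroblast markers had 0 at the limit in either direction and medians of 0.13, 0.07, -0.03 and 0.10. The adipocyte median was 0.87, with 1 marker higher, without HFD-75% mouse 4, and 0.76 with the slow fibre covariate. The covariate took the other 3 to -0.21, -0.10 and -0.02. With 1 mouse left out the nerve median ranged from -0.18 to 0.27, the blood median from -0.12 to 0.30 and the fibroblast median from -0.06 to 0.20. The part of such cells in the differences was not tested.

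**Figure D4:**
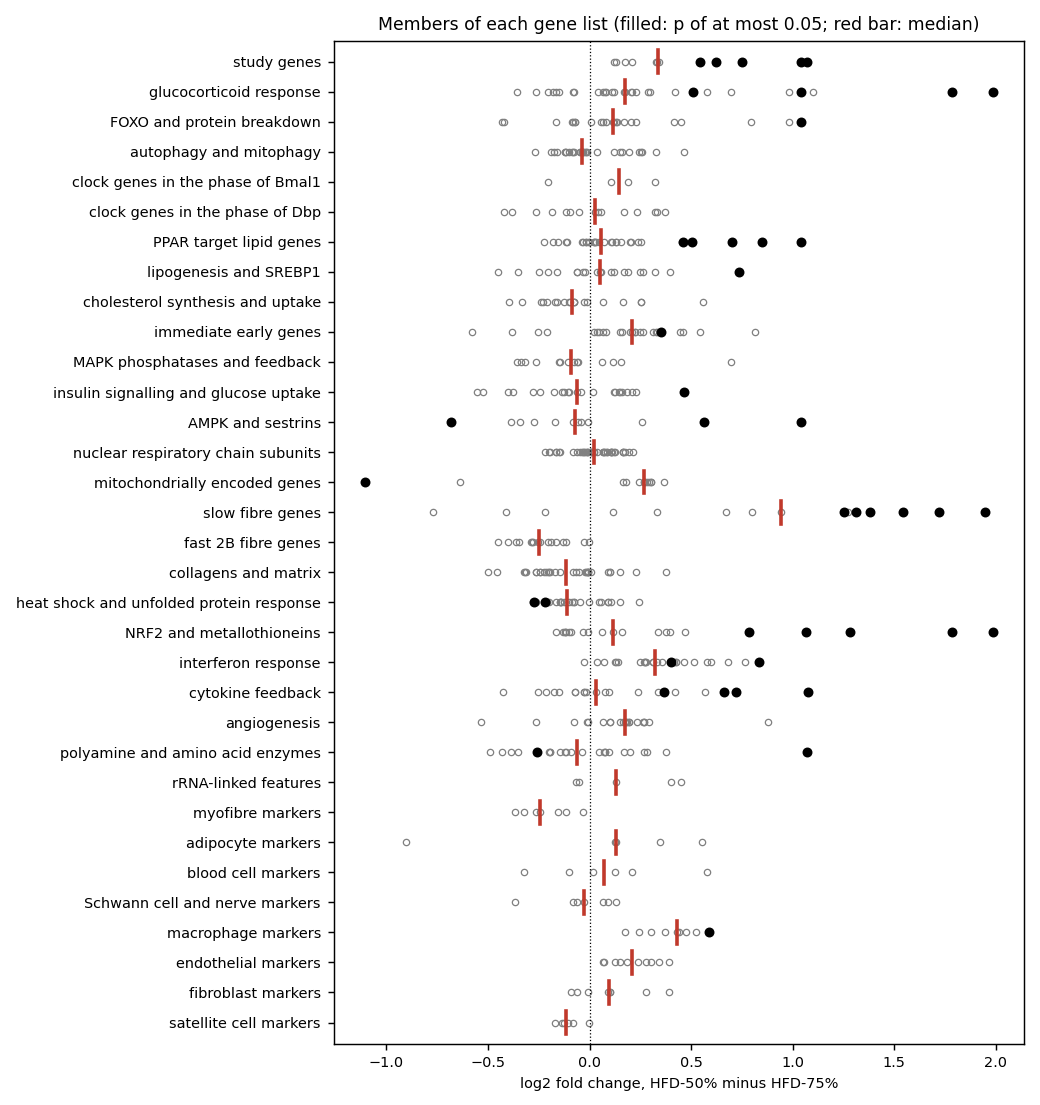
Log2 fold change (HFD-50% minus HFD-75%) of every tested member of each gene list, 1 line per list; filled points are nominal calls and the red bar is the median. Slow fibre genes have a median of 0.94 and interferon-responsive genes 0.32, while most lists are centred near 0.

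Several sets that respond to activity or feeding showed little difference. Clock genes had 0 at the limit, with medians of 0.15 over 4 genes in the phase of Bmal1 and 0.03 over 15 in the phase of Dbp. Neither had a steady sign. The first median was -0.04, with 1 gene lower, without HFD-50% mouse 4 and -0.02 without mouse 1, and the second was below 0 without any of 5 mice, at -0.03 without HFD-50% mouse 4. Nuclear subunits of the respiratory chain had 0 of 41, with estimates from -0.22 to 0.21 and a median of 0.02. Cholesterol genes had 0 of 20, MAPK phosphatases 0 of 14, angiogenic factors 0 of 21, and collagens and matrix genes 0 of 32, with medians of -0.09, -0.09, 0.17 and -0.12. The median of the collagens was 0.01 without HFD-50% mouse 4 and 0.02 without HFD-75% mouse 3. Of the collagens and matrix genes 2 were lower without HFD-50% mouse 3 or HFD-75% mouse 1, and 1 without HFD-75% mouse 6. Without HFD-50% mouse 6, or HFD-75% mouse 4 or 5, 1 of them was higher. MAPK phosphatases had 2 lower without HFD-75% mouse 1, and 1 in DESeq2 or without HFD-50% mouse 1, 2 or 3 or HFD-75% mouse 5. In these runs 0 of the phosphatases were higher and their median was below 0. Without HFD-50% mouse 4, 2 angiogenic factors and 1 cholesterol gene were higher. Of 5 features linked to ribosomal RNA, 0 were at the limit, with a median of 0.13. A median near 0 does not show that the groups were alike, since the 95% interval of a single gene had a median half-width of 0.375 on the log2 scale.

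In the sets left, single members were at the limit. Among 25 immediate early genes it was Zfp36l1, which speeds the decay of AU-rich mRNAs, at 26.5 to 32 CPM against 18.7 to 28.9 CPM (log2 fold change 0.35), and it was 0.64 in HFD-25% against HFD-U (unadjusted p = 0.000881). The median of this list, 0.21, was -0.05 without HFD-50% mouse 4, where 2 genes were higher. Among 23 insulin genes it was Tbc1d4, the Akt substrate that gates glucose transporter traffic, at 47.7 to 81.4 CPM against 34.8 to 64.2 CPM (log2 fold change 0.46). Among 21 lipogenic genes it was Abcg1, a cholesterol exporter induced by LXR, with 0.74 (unadjusted p = 0.0314, past 0.05 without any of 6 mice).

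The 12 genes of AMPK and sestrins split, with Sesn1 and Camkk2, a kinase that activates AMPK, higher and Sesn2 lower. Sesn2 was at 0.91 to 1.73 CPM against 1.53 to 3.15 CPM (log2 fold change -0.68), a direction opposite to that of Sesn1. HFD-50% mouse 4 was the lowest of its group for Sesn2 and the highest for Sesn1. Without this mouse the log2 fold changes were -0.58 (edgeR unadjusted p = 0.0263) and 0.37 (edgeR unadjusted p = 0.164). Without HFD-75% mouse 3 or 4 the list had 0 higher and 1 lower. Camkk2 had 0.56, and 9 of the 12 mice ended its call when left out. Of 24 polyamine and amino acid enzymes, Aldh9a1 was higher and Oaz1, the antizyme that limits polyamines, lower (-0.26, past 0.05 without any of 6 mice). Among 26 heat shock genes the co-chaperones Dnajb5 and Dnaja1 were lower (-0.27 and -0.22), the second losing its call without any of 7 mice. With the slow fibre covariate 0 insulin, 0 lipogenic and 0 heat shock genes were at the limit, and 1 immediate early gene was. AMPK and sestrins then had 2 higher and 1 lower, and polyamine and amino acid enzymes 1 higher and 0 lower.

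Of the 13 genes encoded by mitochondrial DNA that were tested, 11 had estimates above 0, with a median of 0.27, and 1 was at the limit in the other direction. This was ND3, a subunit of complex I, with a log2 fold change of -1.11. HFD-75% mouse 6 held 92.7 CPM, whereas the other 11 mice held 7.92 to 27.5 CPM, and without it the log2 fold change was -0.27 (unadjusted p = 0.355). Without HFD-50% mouse 4 it was -1.07 (unadjusted p = 0.0611).

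The mice that ran 2.1 and 8.3 km/day give another contrast of a shorter and a longer distance, in 12 animals that the comparison above does not use. Of the genes called nominally in HFD-50% against HFD-75%, 626 were tested in both, and 529 of them (84.5%) had the same sign in HFD-25% against HFD-U, where over all 11754 genes tested in both it was 65.6%. By direction, 386 of 450 genes called higher in HFD-50% (85.8%) were higher in HFD-25%, beside 64.1% of all genes higher in HFD-50%. Of 176 genes called lower, 143 (81.2%) were lower, beside 67.3% of all genes lower in HFD-50%. In HFD-25% against HFD-U, 609 of 11949 genes (5.1%) were called nominally. Of the 626 genes, 58 were among these in the same direction and 6 in the opposite one. Over all 11754 genes these numbers were 487 and 111.

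Genes are not independent of each other, so these shares describe the mice at hand. They also rested partly on 1 animal, since without HFD-25% mouse 6 the share was 70.9%, beside 59.6% over all genes. Among the genes named above, Tbx2, Cd274, Xdh, Zfp36l1, Slc41a3, Angptl4 and H2-K1 were called nominally with the same sign in both contrasts. Cxcr4 and ND3 were called with opposite signs.

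**Figure D5:**
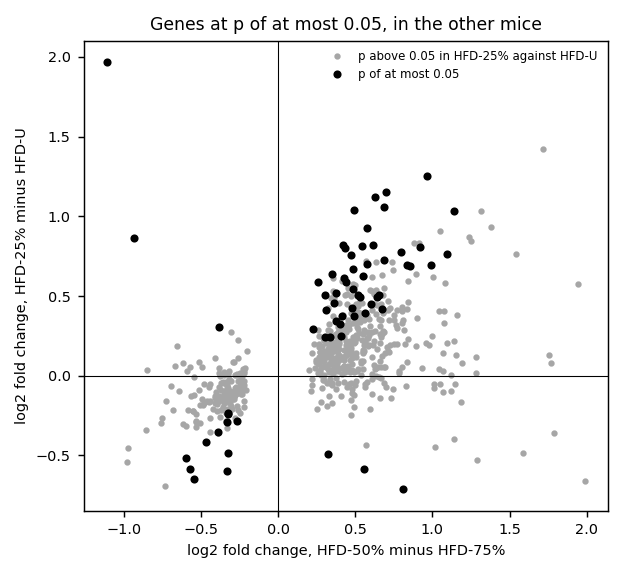
Log2 fold change of the 626 genes called nominally in HFD-50% against HFD-75% (x axis) and of the same genes in HFD-25% against HFD-U (y axis), which are other mice; black points are nominal calls there too. Points in the lower left and upper right, 529 of the 626, have the same sign in both.

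The spread between mice was compared as well. The median absolute log2 difference of a mouse from the median of the other 5 of its group averaged 0.265 ± 0.0785 in the HFD-50% mice and 0.212 ± 0.045 in the HFD-75% mice (SD over 6 mice each). The difference of 0.0525 was not beyond the spread (two-sided exact permutation test, p = 0.182). HFD-50% mouse 4, at 0.407, and HFD-75% mouse 1, at 0.303, were the farthest from their groups. Without HFD-50% mouse 4 the difference was 0.0235 (exact permutation p = 0.394), and without HFD-75% mouse 1 it was 0.0736 (exact permutation p = 0.0411). Leaving out any other mouse gave an exact permutation p of 0.0541 to 0.426.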

How the data were processed

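RNA of 1 gastrocnemius per mouse was sequenced by the authors as poly(A)-selected paired reads. The deposited values are whole-number counts per gene and library, without normalization by the authors. The submitters' processing notes name HISAT2 2.0.5, featureCounts 1.5.0-p3 and the build mm10, whereas the chromosome accessions beside the counts are those of GRCm39, so gene coordinates are given as GRCm39. Of 46893 features, 17549 had no count in any library.

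The 6 HFD-50% and 6 HFD-75% libraries were fitted in R 4.3.3 with edgeR 4.0.16 (quasi-likelihood F-test, two-sided, TMM factors, no covariate) on genes whose mean count reached 25, the minimum of the study. P-values were adjusted over all genes by the Benjamini-Hochberg method, and an unadjusted p of 0.05 or less, a limit of the study, made a nominal call. Intervals are 95% intervals of the log2 fold change and cover the spread between mice. Levels are CPM with TMM factors over the 30 high-fat libraries. The fit was tested on simulated data. With 6 mice against 6, an exact permutation test cannot give a p below 0.00216.

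Genes were named by a rule: any gene past the adjusted limit, the 15 with the smallest p in each direction with a proper gene symbol, the 12 genes named by the study, and in each list the 3 of lowest p (in marker lists also the 3 most abundant). Others named were chosen after their values were seen. Members and lists were chosen with earlier results of these data known. Alternatives were DESeq2 1.42.0, no minimum count, RLE size factors, 1 fit over 5 groups, a block for the mouse number, a slow fibre covariate, mice 2 to 6 alone and each mouse left out. Chosen after seeing the data were the covariate fit and DESeq2 without HFD-50% mouse 4. Promoter sequences are from RefSeq's GRCm38.p6 table. 1 gene that the rule names is not reported here.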

Additional observations from a re-analysis of the deposited data

Results flagged for a closer look

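Within a group of 6 mice, a value was singled out when its gap to the nearest other mouse was more than 0.625 of the whole range (Dixon's limit). Of 144 values tested, 19 passed it. For independent, normally distributed values about 1 in 20 would, or 7.2. Most values tested were CPM of genes named above, chosen for a small p or after their values were seen. The 7.2 is therefore not the number to expect here, and the count is a description. HFD-50% mouse 4 accounted for 10 of the 19. It was the highest of its group for Mt1 (641 CPM, next 64.6), Mt2 (345, next 33.6), Slc39a14 (185, next 48.8), Sesn1 (196, next 77.5), Gpx3 (544, next 248), Fibin (71.4, next 34.4), Map3k6 (64 CPM, next 36.4) and Sln (23.1, next 7.96), and the lowest for Slc41a3 (16.4, next 36.8) and Sesn2 (0.91, next 1.52).

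HFD-75% mouse 1 was the farthest from its group over all genes, at a median absolute log2 difference of 0.303, and the highest for Ehhadh (11.4 CPM). HFD-75% mouse 2 was the highest for Mt2 (36.4 CPM). HFD-75% mouse 5 was the highest for Timm23 (182 CPM) and Hmox1 (12.3 CPM), and HFD-75% mouse 6 for ND3 (92.7 CPM) and Camkk2 (3.46 CPM). HFD-50% mouse 3 was the lowest for Zfp36l1 (26.5 CPM) and HFD-50% mouse 1 the highest for Dnaja1 (32.5 CPM).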

How the results depend on the processing

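In HFD-50% against HFD-75% the count of genes past an adjusted p of 0.05 was 0 in edgeR and in DESeq2, and in every alternative run. The number of nominal calls, 639, was 1826 without a minimum count, 343 with the slow fibre covariate, 999 in mice 2 to 6 alone and 245 with the covariate and without HFD-50% mouse 4. It ranged from 378 (without HFD-75% mouse 2) to 1158 (without HFD-50% mouse 1) when 1 mouse was left out. DESeq2 gave 715 (601 without HFD-50% mouse 4), RLE factors 633 and 1 fit over 5 groups 695. The causes were not tested. The share of these genes that were higher in HFD-50%, 72.1%, was 62.5% in DESeq2, 62% without a minimum count, 56.8% with the block and 60% with the covariate and without mouse 4. Mouse numbers are shared by the groups, but 3 of 6 same-numbered pairs correlated above 0.1 in their deviations, so the numbers were not taken as pairs; a block for these numbers gave 525 higher and 399 lower calls, of which 522 were among the 639, and 0 after adjustment. The 3 pairs were numbers 1 to 3 (0.412, 0.24 and 0.27), and in each the HFD-50% mouse correlated best with its own number, which is a hint from the data and not from the design. With the block the members called were 4 of the macrophage markers in place of 1, 6 interferon genes in place of 2, 8 slow fibre genes in place of 6 and 1 antioxidant gene in place of 5. Glucocorticoid genes had 0 higher and 1 lower in place of 4 and 0, and AMPK and sestrins 0 higher and 2 lower in place of 2 and 1.

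The share with the same sign in HFD-25% against HFD-U, 84.5%, was 65.6% without a minimum count (59.1% over all genes) and 70.9 to 88.2% with 1 mouse left out. The difference in the spread, 0.0525, ranged from 0.0235 (without HFD-50% mouse 4) to 0.0757 with 1 mouse left out. Its exact permutation p was 0.0411 without HFD-75% mouse 1, where the difference was 0.0736, and 0.0541 to 0.426 without any other mouse. Without HFD-50% mouse 4 estimates turned for Mt1 (-0.168, in DESeq2 -0.1734, with the covariate -0.08214), Mt2 (-0.2114, in DESeq2 -0.2139), Fibin (-0.02602, in DESeq2 -0.0314) and Foxo1 (-0.08402, in DESeq2 -0.09057). Lars2 was -0.03845 in mice 2 to 6. With 1 mouse left out, the log2 fold changes ranged from -0.168 to 2 for Mt1, -0.2114 to 2.284 for Mt2, -0.02602 to 0.5825 for Fibin, -0.08402 to 0.2344 for Foxo1 and -0.009571 to 0.2771 for Lars2. Replicates of a group differed by 16.5 to 163 times the variance of sampling alone.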
